A study of Mus musculus with 6 samples.

Results

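The mRNA levels of 10 genes of the death receptor pathway were followed across 6 RNA sequencing libraries of E0771, a cell line from a mouse mammary carcinoma. The genes were the death receptors Fas, Tnfrsf10b and Tnfrsf1a, the adaptor Fadd, the initiator caspase Casp8, its inhibitor Cflar, the kinase Ripk1, and Birc2, Birc3 and Xiap of the inhibitor of apoptosis (IAP) family. They were taken by gene symbol from a deposited table of 28063 genes, in which all 10 have a row. Cells expressing wild-type Malt1 (Malt1_WT), cells expressing a form called the PD mutant (Malt1_PD), and cells with a vector control (Vector) gave 2 libraries each, and what PD stands for is not spelled out in the labels. Every population had been kept with activated CD8 T cells for 12 hours at 3 effector cells per target cell, then washed, trypsinised and reseeded, and was lysed 6 hours after that. No population without T cells was analysed here, so the levels below are levels after T cell contact. The sources used here name neither the promoter that drives Malt1 nor the number of clones in a population. Form and population coincide in this design, and their effects cannot be told apart.

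Death receptors are cell surface proteins of the TNF receptor family that carry a death domain in the cytoplasm. Ligand-bound Fas and Tnfrsf10b recruit FADD, which gathers caspase 8 into a complex where it activates itself, while cFLIP, the product of Cflar, takes the place of caspase 8 in that complex and limits its activity. Ligand-bound Tnfrsf1a first builds a complex with RIPK1 and the ubiquitin ligases cIAP1 (Birc2) and cIAP2 (Birc3), which leads to NF-kB, and a later complex can lead to caspase 8 or to necroptosis. XIAP binds and inhibits caspases further down. CD8 T cells use Fas ligand, TNF and TRAIL beside their cytotoxic granules, and these receptors and inhibitors are known to set how tumour cells answer to them. MALT1 is a paracaspase and scaffold of NF-kB signalling.

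Of the 10 genes, 4 lie next to another member. Cflar (ENSMUSG00000026031.15, chr1:58711508-58758884 in GRCm38, plus strand) and Casp8 (ENSMUSG00000026029.14, chr1:58795374-58847503, plus strand) are 36489 bases apart with 0 protein-coding genes between them. Birc2 (ENSMUSG00000057367.12, chr9:7818227-7837064, minus strand) and Birc3 (ENSMUSG00000032000.17, chr9:7848699-7873186, minus strand) are 11634 bases apart, again with 0 protein-coding genes between. The others lie apart from each other: Fas (ENSMUSG00000024778.12) at chr19:34290666-34327772, Tnfrsf10b (ENSMUSG00000022074.6) at chr14:69767472-69784411, Tnfrsf1a (ENSMUSG00000030341.17) at chr6:125349362-125362484, Ripk1 (ENSMUSG00000021408.15) at chr13:34002363-34037147 and Xiap (ENSMUSG00000025860.15) at chrX:42059679-42109656, all on the plus strand, and Fadd (ENSMUSG00000031077.7) at chr7:144577318-144582463 on the minus strand. The neighbouring Birc2 and Birc3 differ in level, as given below, and their upstream sequences are printed here because they also differ in base composition. RefSeq promoter windows (GRCm38.p6) were matched for 9 of the 10 members, all but Tnfrsf10b, in 13 windows, and the 250 bases upstream of each start were read. Birc2 has 2 windows. The one farther upstream (chr9:7837058-7837307, minus strand), printed here, has a GC content of 68.4% and 31 CpG dinucleotides, more than 94.8% of the 32851 mouse promoter windows. The other (chr9:7836807-7837056, minus strand) has a GC content of 61.2% and 19 CpG dinucleotides, more than 80.3% of the windows. The Birc3 window (chr9:7873171-7873420, minus strand) has a GC content of 43.6% and 6 CpG dinucleotides, more than 49.6% of the windows. CpG dinucleotides are in capitals, and both sequences run 5′ to 3′ towards the start.
Birc2: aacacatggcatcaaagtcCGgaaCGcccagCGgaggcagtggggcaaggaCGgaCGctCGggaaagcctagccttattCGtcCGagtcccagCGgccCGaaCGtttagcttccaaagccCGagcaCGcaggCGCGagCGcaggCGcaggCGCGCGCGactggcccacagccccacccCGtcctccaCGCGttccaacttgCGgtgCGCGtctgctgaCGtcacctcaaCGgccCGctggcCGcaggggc
Birc3: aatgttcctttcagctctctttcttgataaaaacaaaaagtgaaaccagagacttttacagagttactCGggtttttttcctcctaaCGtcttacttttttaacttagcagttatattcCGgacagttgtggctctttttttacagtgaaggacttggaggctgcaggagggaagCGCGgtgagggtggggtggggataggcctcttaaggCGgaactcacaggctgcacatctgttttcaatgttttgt

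Motifs of transcription factors that answer to T cell cytokines were searched on both strands of these windows. They were an NF-kB site (GGG, any 2 bases, TT, any base, CC), the gamma-interferon activation site (GAS, TTCNNNGAA) and an interferon-stimulated response element (ISRE, GAAA, any 2 bases, GAAA). Of the 9 members with a window, 3 held a GAS match (Fas, Tnfrsf1a and Ripk1), and 0 held the NF-kB or ISRE letters. Ripk1 has 2 windows, and only the one at chr13:34002624-34002873 held the GAS letters. The member count is per gene, over 1 or more windows, while the shares that follow are per window. Among all 32851 windows, 7.02% held the GAS letters, 4.11% the NF-kB letters and 2.98% the ISRE letters. A match describes these letters only, and no match says only that they are not in this window. The Fas window (chr19:34290409-34290658, plus strand), from the death receptor whose ligand T cells carry, is printed with its GAS match in capitals.
Fas: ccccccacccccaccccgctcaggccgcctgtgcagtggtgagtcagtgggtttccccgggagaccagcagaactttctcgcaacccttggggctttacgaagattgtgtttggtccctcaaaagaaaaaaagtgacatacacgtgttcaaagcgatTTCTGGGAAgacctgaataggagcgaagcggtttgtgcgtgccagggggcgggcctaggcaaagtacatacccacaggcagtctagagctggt

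The libraries held 14045390 to 19962014 counts. The count floor of 3 equals 0.150 to 0.214 CPM (counts scaled to library size with TMM factors), which covers counting error only, and all 10 members lay far above it. Malt1 was at 67.2 and 82.1 CPM in the Malt1_WT pair and 106 and 95.7 CPM in Malt1_PD, against 23.8 and 31.3 CPM in Vector, in the direction of the labels (log2 fold changes 1.44 ± 0.15, edgeR adjusted p = 0.0920, and 1.87 ± 0.15, edgeR adjusted p = 0.0265). Replicate libraries differed by more than sampling noise, and the labels do not say whether the pairs are separate cultures, so every p-value reflects only the spread of these libraries, possibly a technical one. Replicate 1 of Vector and of Malt1_WT was low on long genes relative to replicate 2 of the same group. Below, these are called the 2 libraries low on long genes in that sense only. A difference within a pair does not say which of its libraries departs. Across 9573 genes with a mean log2 CPM of at least 3, replicate 2 minus replicate 1 had a Spearman rho with gene length of 0.53 in Malt1_WT, -0.05 in Malt1_PD and 0.67 in Vector, as a description across genes. T cell transcripts were scarce. The 6 CD3, CD8 and T cell receptor genes in the table had 0 to 5 counts each in a library, and the 10 of 14 T cell markers in the table summed to 1.49 and 2.24 CPM in the Malt1_WT pair, 2.21 and 2.26 CPM in Malt1_PD, and 2.42 and 2.41 CPM in Vector, with Lck the most abundant. The 6 myeloid markers, mostly Cd14, Cd68 and Lyz2, summed to 16.4 and 18.4 CPM in the Malt1_WT pair, 15.4 and 15.5 CPM in Malt1_PD, and 22.6 and 19.7 CPM in Vector, while Adgre1 and Itgam had at most 7 counts. The 2 of 3 B cell markers in the table summed to 0.443 to 0.641 CPM. T cell and myeloid sums were thus lower in both Malt1 groups than in Vector, the direction also seen for Xiap below, and their part in any result was not tested. The T cell sums rest on only 21 to 45 counts a library, mostly of Lck. Lck itself overlapped between Malt1_PD (1.90 and 1.72 CPM) and Vector (1.80 and 1.96 CPM). Of the mammary epithelial markers, Krt8 had 1742 to 2204 counts and Epcam 110 to 134, while Krt18 and Cdh1 were near 0 with at most 12 and 8 counts.

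The levels of the 10 members per gene length spanned a wide range, and the 6 libraries lay close together for each gene. On the RPKM scale (CPM per kilobase of the deposited gene length), Tnfrsf1a, the main TNF receptor for death signalling, averaged 66.9 over the 6 libraries, above 95.2% of the 14675 genes tested. Fas averaged 24.9 RPKM and Casp8 12.9 RPKM. Xiap followed at 7.91 RPKM. The ranges of these 4 genes over the 6 libraries overlapped neither with each other nor with that of the next gene. Tnfrsf10b, a death receptor for TRAIL, averaged 5.34 RPKM, Ripk1 5.02, Birc2 4.82, Cflar 3.86 and Fadd 3.50, and neighbours among these 5 overlapped. Birc3 was lowest at 1.77 RPKM, above 27.4% of the genes tested, and its highest library (1.95 RPKM) lay below the lowest of Fadd (3.19 RPKM). For 9 of the 10 members the deposited length equals the summed exons of all GENCODE M21 transcripts, so a gene with a long, little-used exon reads low on this scale. For Fas it is 1801 nt, against 2062 nt of GENCODE M21 exons. Cflar, at 12669 nt over 13 annotated transcripts, is the longest of the 10.

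**Figure D1:**
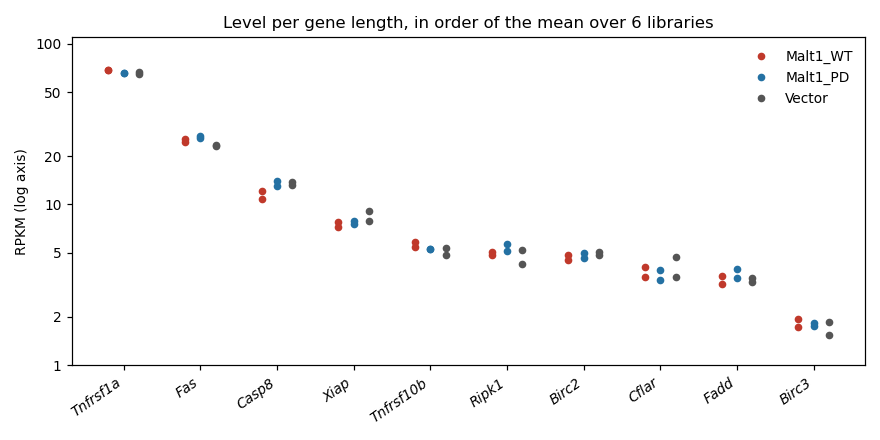
RPKM (log axis) of each member in the 6 libraries, with genes in order of their mean and points coloured by group. Tnfrsf1a (64.7 to 69.0 RPKM) stands highest and Birc3 (1.53 to 1.95 RPKM) lowest, and the groups lie close together within each gene.

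In the quasi-likelihood test of edgeR, with p-values adjusted by the Benjamini-Hochberg method over 14675 genes, 0 of the 10 members were called (adjusted p under 0.05) in Malt1_WT against Vector, where 0.00681% of all genes were called, 0 in Malt1_PD against Vector (0.00681% of all genes), and 0 in Malt1_WT against Malt1_PD (0.00681% of all genes). DESeq2 and limma-voom also called 0 members in each comparison. At an unadjusted p under 0.05 the members counted 1, 0 and 1 in these comparisons, with Casp8 the gene both times, against 7.09%, 8.61% and 1.92% of all genes. The fold changes were small in the edgeR fit of all 6 libraries, where all 30 member values lay between 0.850 and 1.14. In that fit 0 of the 30 95% confidence intervals reached a 1.5-fold difference in either direction. Its widest bounds were 0.697-fold (Cflar, Malt1_PD against Vector) and 1.41-fold (Birc3, Malt1_WT against Vector). These bounds are those of edgeR only. For Birc3 in Malt1_WT against Vector the log2 fold change was 0.12 ± 0.24 (SE) by DESeq2, against 0.11 ± 0.16 by edgeR. Each pair of comparisons shares a group of libraries, so their values are not independent. The 1 gene called was Malt1 in Malt1_PD against Vector and Cd274 in the other 2 comparisons. In bulk RNA, fewer cells of a type and less RNA per cell cannot be told apart. Cd274, which encodes PD-L1, was 117.8-fold higher (95% interval 91.4 to 151.9) in Malt1_WT than in Vector.

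**Figure D2:**
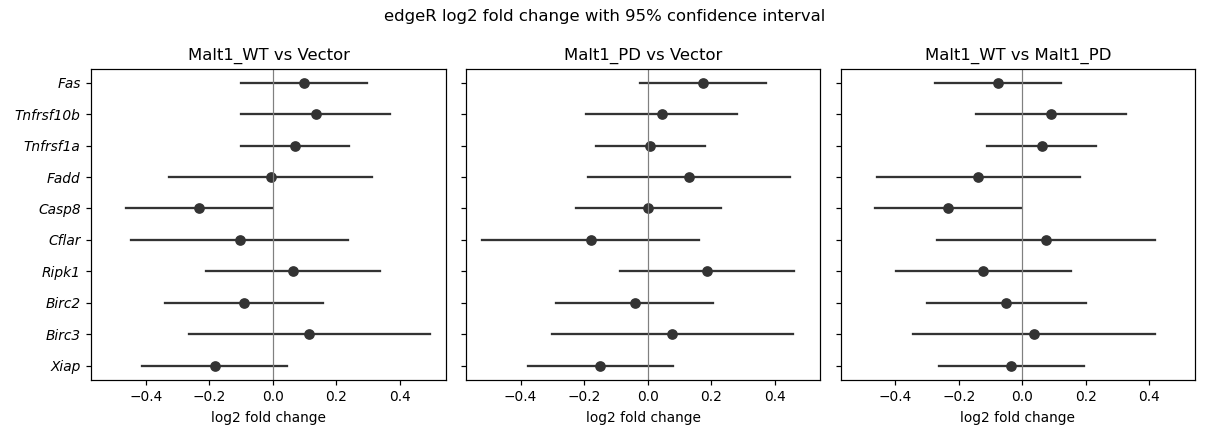
Log2 fold change of each member with its 95% confidence interval (horizontal axis) in the 3 comparisons, from edgeR. Of the 30 intervals, 28 include 0, and the 2 that do not are those of Casp8 in Malt1_WT against Vector and against Malt1_PD.

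Among the receptors, Fas had 43.9 and 46.2 CPM in the Malt1_WT pair and 46.8 and 48.3 CPM in Malt1_PD, against 42.4 and 41.7 CPM in Vector. Both Malt1 groups lay above Vector in every library, by log2 fold changes of 0.10 ± 0.09 (SE, edgeR adjusted p = 0.872) for Malt1_WT and 0.18 ± 0.09 (edgeR adjusted p = 0.617) for Malt1_PD, neither past the threshold. Malt1_WT lay below Malt1_PD, at -0.08 ± 0.09. Tnfrsf1a was the steadiest of the 10 members, at 178.4 and 178.7 CPM in the Malt1_WT pair and 171.0 and 171.2 CPM in Malt1_PD, against 172.5 and 167.7 CPM in Vector. Its highest library was 0.09 log2 units above its lowest, and its interval in Malt1_WT against Vector ran from 0.932-fold to 1.18-fold. Tnfrsf10b had 29.5 and 31.7 CPM in the Malt1_WT pair and 29.0 and 28.6 CPM in Malt1_PD, against 26.5 and 29.4 CPM in Vector. Malt1_WT lay above both other groups, with log2 fold changes of 0.13 ± 0.10 against Vector (edgeR adjusted p = 0.845) and 0.09 ± 0.10 against Malt1_PD (edgeR adjusted p = 1.00), and Malt1_PD overlapped with Vector.

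Casp8, the initiator caspase of the receptor complex, had the largest difference of any member, which did not pass the threshold. It stood at 31.5 and 35.2 CPM in the Malt1_WT pair and 40.7 and 37.9 CPM in Malt1_PD, against 40.0 and 38.4 CPM in Vector. Both Malt1_WT libraries lay below all 4 others. The log2 fold change of Malt1_WT was -0.23 ± 0.10 (SE) against Vector (0.851-fold, 95% interval 0.726 to 0.998, edgeR unadjusted p = 0.0481, adjusted p = 0.699) and -0.23 ± 0.10 against Malt1_PD (0.850-fold, interval 0.724 to 0.997, edgeR unadjusted p = 0.0471, adjusted p = 1.00). Malt1_PD against Vector was at 0.00 ± 0.10. Without Malt1_WT replicate 1 the difference from Vector was -0.15 and that from Malt1_PD -0.16, and without Malt1_WT replicate 2 they were -0.32 and -0.32, with adjusted p between 0.912 and 1.00 in these 4 fits. Fadd, the adaptor that binds caspase 8, had 12.5 and 13.9 CPM in the Malt1_WT pair and 15.6 and 13.5 CPM in Malt1_PD, against 13.7 and 12.9 CPM in Vector, with overlap in all 3 comparisons. Reads of Fadd and of its antisense gene Faddos, which share 239 nt of Fadd exons, cannot be told apart without the strand setting of the counting, which the sources used here do not name.

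Cflar, whose product cFLIP competes with caspase 8, varied most between libraries, over 0.47 log2 units. It had 44.9 and 52.0 CPM in the Malt1_WT pair and 42.8 and 49.4 CPM in Malt1_PD, against 45.04 and 59.3 CPM in Vector. Replicate 2 was the higher library in all 3 groups, and the groups overlapped in all 3 comparisons. Its log2 fold change was -0.10 ± 0.15 in Malt1_WT against Vector and -0.18 ± 0.15 in Malt1_PD against Vector (edgeR adjusted p = 0.934 and 0.776), and 1 library decided the sign of both: without Vector replicate 2 they were 0.11 and 0.04, and without Vector replicate 1 -0.29 and -0.36. The genes closest to Cflar in pattern over the 6 libraries, of 11722 searched, were Dnaaf5, Dab2ip and Slc4a7, with root-mean-square differences of centred log2 CPM of 0.03, 0.04 and 0.04. Their lengths were 3514, 8366 and 15205 nt.

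Within a library, the level of Cflar per length was a small share of that of Casp8. This rests on deposited lengths of 12669 nt for Cflar and 2893 nt for Casp8. In CPM, not divided by length, Cflar was the higher in every library (42.8 to 59.3 against 31.5 to 40.7 CPM). The ratio per length was 0.326 and 0.337 in Malt1_WT and 0.240 and 0.297 in Malt1_PD, against 0.257 and 0.353 in Vector, with no separation of the groups. The ratio of Casp8 to Fadd was 3.41 and 3.41 in Malt1_WT and 3.53 and 3.78 in Malt1_PD, against 3.95 and 4.02 in Vector. Of the several ratios between members that were computed, this was the only one in which the 3 groups did not overlap. How often other gene pairs separate in this way was not computed. The ratios were chosen after the levels had been seen and were not tested.

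Ripk1, the kinase that links Tnfrsf1a to NF-kB and to cell death, had 40.4 and 42.1 CPM in the Malt1_WT pair and 47.2 and 42.7 CPM in Malt1_PD, against 35.4 and 43.5 CPM in Vector. Vector replicate 1 was the lowest library and the Vector pair spanned the Malt1_WT pair. The log2 fold change was 0.06 ± 0.12 in Malt1_WT and 0.19 ± 0.12 in Malt1_PD against Vector (edgeR adjusted p = 0.948 and 0.716). Without Vector replicate 1 these were -0.08 and 0.04, and without Vector replicate 2 they were 0.23 and 0.35 (edgeR adjusted p = 0.276 and 0.0782). Both Malt1_WT libraries lay below both Malt1_PD libraries, at -0.12 ± 0.12. Ripk1 exons share 241 nt with Serpinb6a on the other strand and 511 nt with the processed pseudogene Gm17084, out of 8344 nt.

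**Figure D3:**
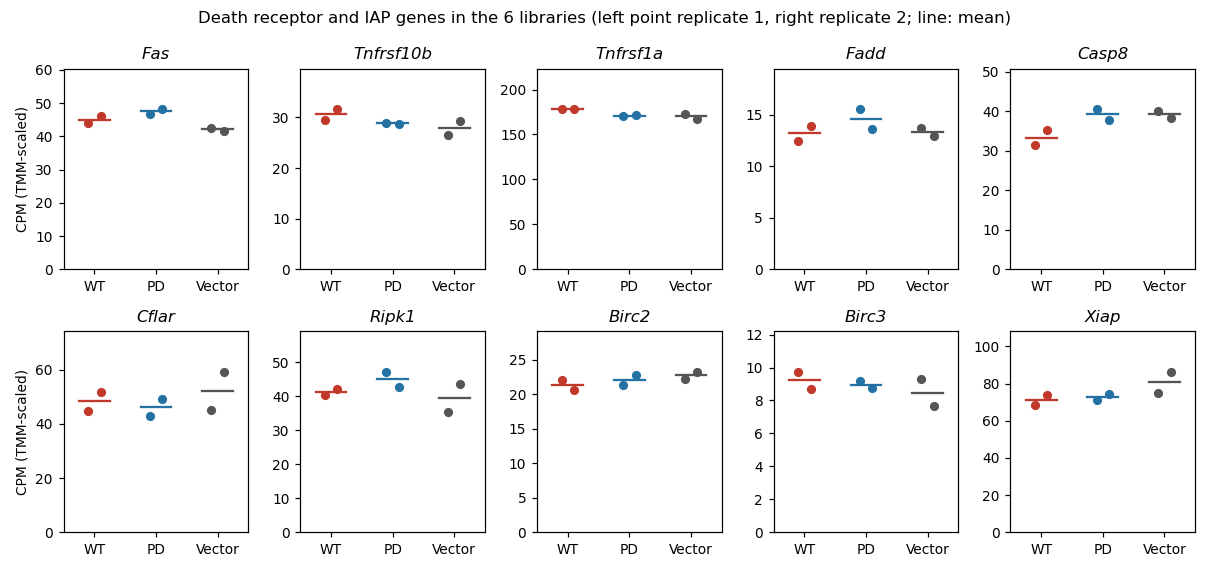
CPM of each member by group, with replicate 1 as the left point, replicate 2 as the right point and the mean as a line. The vertical axes start at 0. Malt1_WT lies below the other groups for Casp8 (31.5 and 35.2 CPM), and the Vector pair is wide for Cflar (45.04 and 59.3 CPM) and Ripk1 (35.4 and 43.5 CPM).

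Of the IAP genes, Xiap, the direct caspase inhibitor, had 68.4 and 73.7 CPM in the Malt1_WT pair and 71.2 and 74.5 CPM in Malt1_PD, against 75.1 and 86.4 CPM in Vector. All 4 Malt1 libraries lay below both Vector libraries, though by little for the lower of the Vector pair. The log2 fold change was -0.18 ± 0.10 in Malt1_WT (0.881-fold, interval 0.752 to 1.03, edgeR adjusted p = 0.756) and -0.15 ± 0.10 in Malt1_PD (0.902-fold, interval 0.770 to 1.06, edgeR adjusted p = 0.725). Its size rested on the Vector libraries: without Vector replicate 2 the values were -0.07 and -0.04 (edgeR adjusted p = 0.725 and 0.858), and without Vector replicate 1 -0.28 and -0.25 (edgeR adjusted p = 0.204 and 0.252). Birc2, which encodes cIAP1, had 22.1 and 20.7 CPM in the Malt1_WT pair and 21.4 and 22.8 CPM in Malt1_PD, against 22.2 and 23.3 CPM in Vector, with log2 fold changes of -0.09 ± 0.11 and -0.04 ± 0.11. Malt1_WT lay below Vector by a narrow margin and overlapped with Malt1_PD. Birc3, which encodes cIAP2 and is a known NF-kB target, had 9.75 and 8.68 CPM in the Malt1_WT pair and 9.17 and 8.74 CPM in Malt1_PD, against 9.29 and 7.68 CPM in Vector. All groups overlapped, with log2 fold changes of 0.11 ± 0.16 and 0.08 ± 0.16 against Vector (edgeR adjusted p = 0.934 and 0.928). Per length, Birc2 exceeded its neighbour Birc3 in every library, by 2.47 and 2.61 times in Malt1_WT, 2.55 and 2.86 times in Malt1_PD, and 2.61 and 3.32 times in Vector.

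The directions of the members were mixed. In Malt1_WT against Vector 5 of the 10 log2 fold changes were above 0 and 5 below, with a median of 0.03. The groups did not overlap in 6 members (3 higher and 3 lower) and in 32.6% of all genes (15.5% higher and 17.1% lower). In Malt1_PD against Vector 7 were above 0 and 3 below, with a median of 0.03. The groups did not overlap in 2 members (1 higher and 1 lower) and in 38.1% of all genes (18.4% higher and 19.7% lower). In Malt1_WT against Malt1_PD 4 were above 0 and 6 below, with a median of -0.04. The groups did not overlap in 5 members (2 higher and 3 lower) and in 32.1% of all genes (16.1% higher and 16.0% lower). The median over all genes tested was -0.0012, -0.0011 and 0.0016 in the 3 comparisons. Called shares of 0 of 10 stand beside a background of 1 gene in 14675, so the members are not set apart by it.

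Within the Vector pair the 3 longest members were the ones with the highest values in replicate 2 relative to replicate 1. Replicate 2 minus replicate 1 in Vector was 0.40 log2 units for Cflar (12669 nt), 0.30 for Ripk1 (8344 nt) and 0.20 for Xiap (9469 nt), against -0.02 for Fas (1801 nt), -0.04 for Tnfrsf1a (2591 nt) and -0.06 for Casp8 (2893 nt). Birc3 (5009 nt) was lowest at -0.27. Centred on the gene's mean over the 6 libraries, log2 CPM of Cflar was -0.11 in Vector replicate 1 and 0.29 in Vector replicate 2. Xiap was at 0.01 and 0.21 and Ripk1 at -0.24 and 0.06, so the library farther from the mean differed between genes. With a smooth trend on gene length removed from each library, the standard errors of Cflar and Xiap narrowed and 0 members were called. In that fit Xiap was at -0.20 ± 0.07 in Malt1_WT and -0.18 ± 0.07 in Malt1_PD against Vector (edgeR adjusted p = 0.313 and 0.321), and Cflar at -0.14 ± 0.09 and -0.24 ± 0.09 (edgeR adjusted p = 0.618 and 0.290). With the pair of libraries low on long genes left out (replicate 1 of Vector and of Malt1_WT), Xiap was called lower in Malt1_WT (-0.23 ± 0.07, adjusted p = 0.0221) and in Malt1_PD (-0.24 ± 0.06, adjusted p = 0.00123) against Vector, and Cflar lower in Malt1_PD (-0.36 ± 0.08, adjusted p = 0.000132). That fit has 1 library each of Malt1_WT and Vector, assumes that these vary like the Malt1_PD pair, and called 936 and 2080 genes in all. It leaves Vector replicate 2 as the only Vector library, and without that library instead Xiap was at -0.07 and -0.04 and Cflar at 0.11 and 0.04, with 0 members called.

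**Figure D4:**
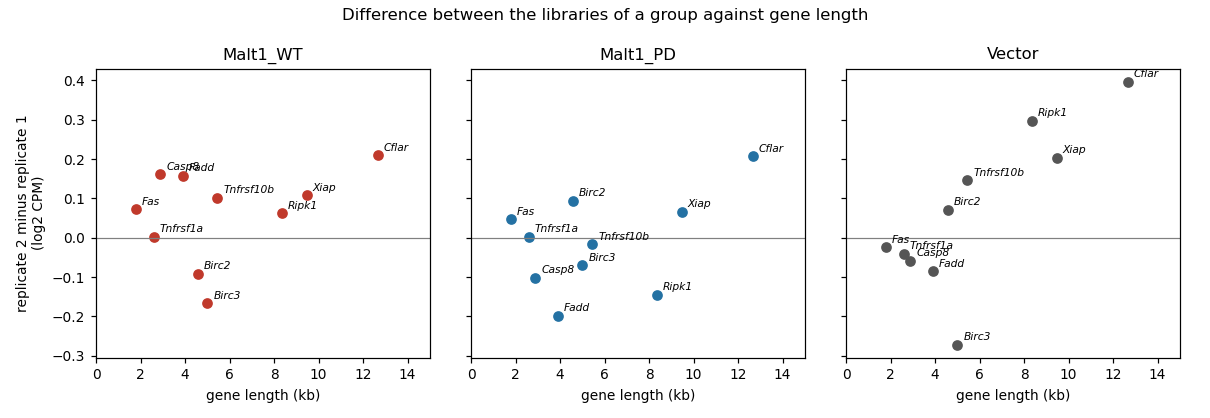
Replicate 2 minus replicate 1 (log2 CPM, vertical axis) against gene length (horizontal axis, kb) for the 10 members in each group. In Vector the longest members, Cflar, Ripk1 and Xiap, lie highest (0.20 to 0.40), and Birc3 lies at -0.27.

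Of 55 other listed genes of the pathway, 54 had a row and 46 passed the filter on low counts. In each of the 3 comparisons 0 of these 46 were called by edgeR, DESeq2 or limma-voom. At an unadjusted p under 0.05 by edgeR they counted 2, 6 and 0, against 7.09%, 8.61% and 1.92% of all genes. The median log2 fold changes of the 46 were 0.01, -0.01 and 0.03. Death ligand transcripts were scarce: Fasl had 1 count in 1 Vector library and 0 in the other 5, Lta 1 to 4 counts, and Tnf and Tnfsf10 (TRAIL) 15 to 35 counts. Neither passed the threshold, with log2 fold changes against Vector of 0.57 ± 0.40 in Malt1_WT and -0.02 ± 0.43 in Malt1_PD for Tnfsf10, and of 0.11 ± 0.37 in Malt1_WT and -0.42 ± 0.39 in Malt1_PD for Tnf. Of the other TNF family receptors, Tnfrsf1b, the second TNF receptor, which lacks a death domain, was counted at 49.0 to 52.5 RPKM, and the 4 that did not pass the filter were Tnfrsf21, Tnfrsf25, Tnfrsf26 and Ngfr. The lymphotoxin receptor gene Ltbr was at 126.9 ± 0.667 CPM in Malt1_WT against 114.1 ± 6.83 CPM in Vector (SD, n = 2 each). Its log2 fold change of 0.15 ± 0.08 did not pass the threshold (edgeR adjusted p = 0.756).

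Casp6, which encodes a caspase downstream of the initiators, was at 2.84 to 4.38 RPKM. It had 16.4 ± 0.724 CPM in Malt1_PD against 22.5 ± 2.78 CPM in Vector, and its log2 fold change of -0.46 ± 0.14 was not called (edgeR adjusted p = 0.458). Among genes that oppose the IAPs, Xaf1, an interferon-induced antagonist of XIAP, had 27.8 ± 0.288 CPM in the Malt1_WT pair and 28.1 ± 1.89 CPM in Malt1_PD, against 34.0 ± 1.82 CPM in Vector. Its log2 fold changes were -0.29 ± 0.10 and -0.27 ± 0.10 (edgeR adjusted p = 0.612 and 0.539), with both Malt1 groups below both Vector libraries. Diablo, which encodes the mitochondrial IAP antagonist SMAC, was low, at 0.566 to 0.970 RPKM.

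The smallest p among the pathway genes in both comparisons with Vector belonged to Ripk3, the necroptosis kinase that RIPK1 engages. It had 54.9 ± 2.68 CPM in the Malt1_WT pair and 52.4 ± 0.0235 CPM in Malt1_PD, against 41.0 ± 3.36 CPM in Vector (SD, n = 2 each). The log2 fold changes of 0.42 ± 0.10 and 0.35 ± 0.10 did not pass edgeR's threshold (adjusted p = 0.351 and 0.378). With the length trend removed and the replicate number as a block it did (0.46, edgeR adjusted p = 0.0185, and 0.40, edgeR adjusted p = 0.0295), and so it did without the 2 libraries low on long genes (0.56 and 0.44). Its substrate Mlkl, the executioner of necroptosis, was at 102.0 ± 0.260 CPM in the Malt1_WT pair and 93.3 ± 5.97 CPM in Malt1_PD, against 112.1 ± 3.13 CPM in Vector, with log2 fold changes of -0.14 ± 0.08 (edgeR adjusted p = 0.800) and -0.27 ± 0.08 (edgeR unadjusted p = 0.0137, adjusted p = 0.468) against Vector. Without the 2 libraries low on long genes it was called lower in Malt1_PD than in Vector (-0.23, edgeR adjusted p = 0.000119). Of the 16 genes for receptor complex adaptors and ubiquitin enzymes, 0 reached an unadjusted p under 0.05 in any comparison, and their medians were 0.05, -0.0030 and 0.05. The deubiquitinase gene Tnfaip3 (A20), an NF-kB target that restrains the receptor complex, was at 33.4 ± 1.6 CPM in the Malt1_WT pair and 29.9 ± 1.71 CPM in Malt1_PD, against 29.6 ± 2.20 CPM in Vector. The kinase gene Map3k7 (TAK1) was at 83.7 ± 1.01 CPM in Malt1_PD against 73.9 ± 7.53 CPM in Vector (0.18 ± 0.10, edgeR adjusted p = 0.652).

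Of the 5 NF-kB feedback genes, Nfkb2 (161.3 ± 1.33 CPM in Malt1_PD against 184.2 ± 2.7 CPM in Vector) and Nfkbia had an unadjusted p under 0.05 in Malt1_PD against Vector, at -0.19 ± 0.07 and -0.21 ± 0.09 (edgeR adjusted p = 0.548 and 0.576). Tnip1 had 288.5 ± 14.2 CPM in Malt1_WT against 258.5 ± 21.2 CPM in Vector (0.16 ± 0.09, adjusted p = 0.760). In the rest of the IAP family, Birc6, a very long gene of 25772 nt named here after its values were seen, had 3968 and 7878 counts in Malt1_WT and 6060 and 6177 in Malt1_PD, against 3346 and 6948 in Vector. Replicate 1 was the low library in Malt1_WT and in Vector, and the Malt1_PD pair lay close together. Naip5, with 19 to 45 counts, and Naip2 had the smallest p of that family and were not called (edgeR adjusted p of 0.849 for Naip5 in Malt1_WT against Vector and 0.749 for Naip2 in Malt1_PD against Vector). Between Malt1_WT and Malt1_PD the smallest p of each list were those of Mlkl (0.13), Tnfaip3 (0.16), Naip5 (-0.47), Tnfsf10 (0.59), Dffb (0.28), Nfkbia (0.11), Tnfrsf22 (-0.10) and Htra2 (-0.07), 0 of them called (edgeR adjusted p = 1.00 for each).

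**Figure D5:**
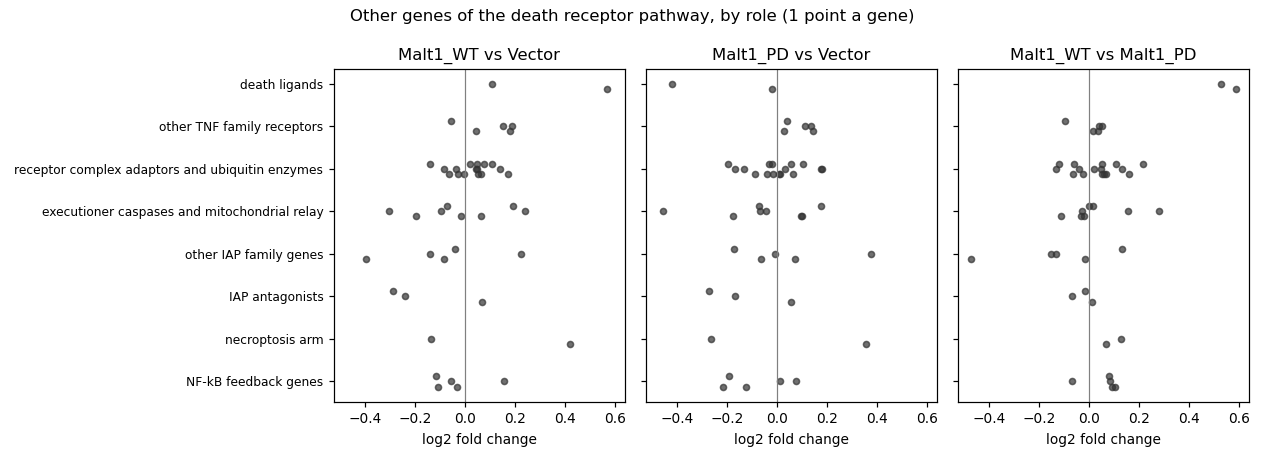
Log2 fold change (horizontal axis) of the tested genes of each pathway list (rows), 1 point a gene, in the 3 comparisons. The points farthest right in the first panel are Tnfsf10 (0.57) and Ripk3 (0.42), and 0 of the 46 genes were called in a comparison.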

How the data were processed

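RNA was sequenced in pairs of 150 bases from 6 libraries, per the labels' protocols, and the coculture is described in the series' design text. The submitters' processing notes list Trim Galore 0.6.0, STAR 2.7.3a, featureCounts 1.6.3 and the build GRCm38.p6, while the annotation release and strand setting of the counting are not stated there. The authors deposited raw counts per gene, not normalised, and 1 gene length per gene. The 6 deposited log2 RPKM columns were not used, because some of their names repeat. RPKM here were computed from the counts.

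Genes were kept by filterByExpr by group (14675 of 28063). The fit used edgeR 4.0.16 under R 4.3.3 (TMM normalisation, glmQLFit, glmQLFTest, two-sided, a mean per group, 6 libraries in 1 fit, 3 residual degrees of freedom, common dispersion 0.0101). A gene was called at a Benjamini-Hochberg adjusted p under 0.05 among all genes tested. Standard errors (SE) come from the quasi-likelihood F, and 95% intervals use the t distribution with edgeR's total degrees of freedom. Pattern distances used log2 CPM with a prior count of 2. The scripts were tested on simulated data. Alternatives were DESeq2 1.42.0 (Wald test), its size factors, limma-voom (limma 3.58.1), no low-count filter, the compared groups alone, the replicate number as a block, a length trend removed (loess, span 0.3), both together, and leaving out libraries.

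The members, gene lists and alternatives were chosen with earlier results of these data known. The naming rule took all 10 members, Malt1 and Cd274, called pathway genes, the gene of smallest p in each list and comparison, and the 3 genes nearest in pattern to the most variable member. Some genes of the pathway lists are not reported here. Coordinates are from GENCODE M21 (GRCm38) and promoter sequences from RefSeq (GRCm38.p6).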

Additional observations from a re-analysis of the deposited data

How the results depend on the processing

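Over 15 alternatives, 3 of 450 member values passed the threshold, all in the fit without Vector replicate 1 and Malt1_WT replicate 1 (Xiap in both comparisons with Vector, Cflar in Malt1_PD). Members called were 1 in Malt1_WT and 2 in Malt1_PD against Vector there, and 0 in every other alternative. Pathway genes called in Malt1_WT against Vector, 0 by the reported fit, were 4 in that fit, 1 with the length trend removed and the replicate block, and 0 to 1 on leaving out 1 library. In Malt1_PD against Vector they were 7, 1 and 0 to 3, and 1 (Birc6) with no low-count filter. Without Vector replicate 2 the pathway calls were Birc6 (0.85) in Malt1_WT, and Casp6 (-0.57), Nfkbia (-0.31) and Birc6 (1.00) in Malt1_PD against Vector.

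All genes called, 1 in each reported comparison, moved more. In Malt1_WT against Vector they were 113 with no filter, 31 by DESeq2, 6 with the replicate block, 59 with the length trend removed, 199 with both, 936 without the 2 libraries low on long genes, and 1 to 599 on leaving out 1 library. In Malt1_PD against Vector the numbers were 188, 43, 9, 95, 257, 2080 and 0 to 928. In Malt1_WT against Malt1_PD they were 12 with no filter and 358 without the 2 libraries. Both of the high ends came without Vector replicate 2, and without Vector replicate 1 the numbers were 50 and 111. The cause was not tested.

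The sign differed in 26 of the 450 member values, 0 of them past the threshold. Fadd in Malt1_WT against Vector was 0.00060 with DESeq2 size factors, 0.0012 with no filter, 0.0040 with the length trend removed, 0.0068 with the replicate block as well, and 0.11 without the 2 libraries. In that last fit, where Tnfrsf1a kept its sign, Ripk1 was -0.046 in Malt1_WT against Vector, Tnfrsf10b -0.025 and Tnfrsf1a 0.031 in Malt1_PD against Vector, and Birc3 -0.046 and Xiap 0.016 in Malt1_WT against Malt1_PD. Leaving out 1 library at a time gave, in Malt1_WT against Vector, -0.090 to 0.068 for Fadd, -0.29 to 0.11 for Cflar, -0.077 to 0.23 for Ripk1 and -0.014 to 0.26 for Birc3. In Malt1_PD against Vector it gave -0.028 to 0.13 for Tnfrsf10b, -0.0066 to 0.028 for Tnfrsf1a, -0.051 to 0.055 for Casp8, -0.36 to 0.039 for Cflar, -0.087 to 0.0028 for Birc2 and -0.048 to 0.22 for Birc3. In Malt1_WT against Malt1_PD it gave -0.037 to 0.18 for Cflar, -0.046 to 0.12 for Birc3 and -0.091 to 0.017 for Xiap.

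Replicate numbers are shared across groups, but only 2 numbers exist and nothing in the labels ties them to a shared culture or day. Deviations of same-numbered libraries correlated at 0.68 between Malt1_WT and Vector, 0.03 between Malt1_WT and Malt1_PD and -0.01 between Malt1_PD and Vector. The replicate block changed no member's call. The intervals given are ranges of differences that fit these libraries and are not limits of detection. With 2 libraries a group, even Malt1 at 2.71-fold in Malt1_WT against Vector was not called (edgeR adjusted p = 0.0920).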
